A study of Mus musculus with 11 samples.

Results

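The transcripts described here are 10 genes that mark endothelial cells, the cells that line blood vessels: Pecam1, Ly6a, Cdh5, Cldn5, Emcn, Kdr, Flt1, Tie1, Tek and Egfl7. They were taken by symbol from a table of 20640 genes measured by bulk RNA-seq in 11 libraries of sorted mouse muscle stem cells from limbs, and all 10 were found. They bear on how far a sort that excludes CD31 (Pecam1) and Sca-1 (Ly6a) kept vessel RNA out of the libraries. The 4 groups were VCAM1-negative (3 libraries), VCAM1-low (2) and VCAM1-high (3) cells of geriatric mice older than 28 months, and YFP+ cells of middle-aged mice (3), aged 10 to 14 months in the sample labels and 12 to 14 months in the extraction protocol. Every mouse was Pax7-CreERT2;Rosa-YFP, in which tamoxifen switches on YFP in cells that use the Pax7 promoter, and had tamoxifen by mouth on 5 consecutive days at 12 to 14 weeks of age. No group is free of the label or of tamoxifen. The sort kept YFP+ cells without Sca-1, CD31 and CD45, and the VCAM1 gates followed the intensity of the middle-aged YFP+ cells. Titles of the middle-aged libraries name no VCAM1 gate. Gate names here are those of the titles. Elsewhere the submitters write mid for one lower gate and low or minus for the other, and do not match these to the titles. Age, gating and time since labelling cannot be told apart between geriatric and middle-aged cells. Nothing in the labels says that replicates came from separate mice, so p-values measure the spread between these libraries only, which may be technical.

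Endothelial cells hold to each other through VE-cadherin (Cdh5), claudin-5 (Cldn5) and CD31. They respond to vascular endothelial growth factor (VEGF) through KDR and FLT1 and to angiopoietins through TEK, also called TIE2, with TIE1 as its co-receptor. Adult skeletal muscle is dense in capillaries, and muscle stem cells lie beside them under the basal lamina of the fibre. TEK has also been described on muscle stem cells themselves, where angiopoietin-1 favours quiescence. Sca-1 is carried by vessel cells and by fibro-adipogenic progenitors, so it is not a marker of vessels alone.

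All 12 muscle stem cell markers examined, Pax7, Myf5 and Calcr among them, reached 1 RPKM (read number scaled to gene length and library depth) in every library. Read depth, estimated from the steps between low RPKM values, was 19.8 to 29.7 M reads per library. The libraries numbered 3 stood apart for the endothelial genes. Middle-aged library 3 held the highest level of all 11 libraries for 10 of 10 members, an order met by 9.83% of the 11568 genes tested. VCAM1-high library 3 was the highest of its group for 9 of 10, against 40.5% of genes, and VCAM1-negative library 3 the lowest of its group for 8 of 10, against 23.4%. Library 3 was at once the lowest of VCAM1-negative and the highest of VCAM1-high and of middle-aged cells for 8 of 10 members, against 2.73% of genes. Results are therefore given with and without the number-3 libraries.

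Promoters of 3 members that lie at the first annotated start of the gene are printed to show where the members share letters and where they do not. The table used holds promoters for 7 of the 10 members, in 9 windows, and none for Pecam1, Ly6a and Cdh5. Each window is the 250 bases before a RefSeq start in GRCm38.p6, written 5′ to 3′ on the gene's strand. Capitals mark AGGAAG or CTTCCT, a longer form of the ETS core GGAA or TTCC. ETS factors such as ERG and FLI1 are known regulators of endothelial genes. Tie1 (chr4:118489850-118490099, minus strand), Egfl7 (chr2:26580833-26581082, plus strand) and Cldn5 (chr16:18776597-18776846, plus strand) follow.
Tie1: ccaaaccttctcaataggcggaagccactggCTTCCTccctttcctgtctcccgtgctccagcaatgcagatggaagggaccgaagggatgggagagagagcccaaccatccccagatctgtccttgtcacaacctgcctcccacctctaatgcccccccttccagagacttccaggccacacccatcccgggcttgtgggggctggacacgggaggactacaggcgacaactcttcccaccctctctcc
Egfl7: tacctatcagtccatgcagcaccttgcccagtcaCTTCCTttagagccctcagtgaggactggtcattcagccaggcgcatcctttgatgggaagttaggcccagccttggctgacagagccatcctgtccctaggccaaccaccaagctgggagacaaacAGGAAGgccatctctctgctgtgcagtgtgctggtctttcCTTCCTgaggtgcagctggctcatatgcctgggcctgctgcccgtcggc
Cldn5: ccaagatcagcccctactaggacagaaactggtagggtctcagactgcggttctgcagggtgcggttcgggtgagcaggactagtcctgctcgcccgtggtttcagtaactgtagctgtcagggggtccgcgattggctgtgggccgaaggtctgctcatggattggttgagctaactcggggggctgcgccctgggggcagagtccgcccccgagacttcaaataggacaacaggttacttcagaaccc
The Tie1 window held 1 match and the Egfl7 window 3, while the letters were not in the Cldn5 window. Over all members, 5 of 9 windows held AGGAAG or CTTCCT, against 29.5% of 32851 promoters of the same length searched on both strands. Egfl7 has windows at 3 starts, of which starts 1 and 2 held the letters, so windows are not separate genes. The GATA letters AGATAA or TTATCT were in 0 of 9 windows, against 9.99% of promoters. Windows of Flt1 and Emcn held 2 matches to AGGAAG or CTTCCT each, and those of Kdr and Tek none. The shorter core GGAA or TTCC was not counted. The matches are letters in a window, and no binding was measured.

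The genes of the excluded proteins were measured in every group. Pecam1 encodes CD31, an adhesion molecule of endothelial cells, platelets and leukocytes. Its level was 10.8, 15.7 and 2.23 RPKM in VCAM1-negative libraries 1 to 3, 4.10 and 8.95 RPKM in VCAM1-low libraries 1 and 2, 0.906, 2.05 and 10.2 RPKM in VCAM1-high libraries 1 to 3, and 0.665, 1.46 and 20.5 RPKM in middle-aged libraries 1 to 3. Library 3 was the lowest of the VCAM1-negative libraries and the highest of the VCAM1-high and of the middle-aged ones, and the groups overlapped. Group means were 9.57 ± 6.8 RPKM (SD, n = 3) in VCAM1-negative, 6.52 ± 3.4 RPKM (n = 2) in VCAM1-low, 4.40 ± 5.1 RPKM (n = 3) in VCAM1-high and 7.53 ± 11 RPKM (n = 3) in middle-aged cells. The SD was larger than the mean in VCAM1-high and middle-aged cells.

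Ly6a encodes Sca-1, a membrane-anchored protein of the Ly6 family. It had 26.8, 36.2 and 14.3 RPKM in VCAM1-negative libraries, 10.5 and 18.2 RPKM in VCAM1-low, 2.88, 7.53 and 40.4 RPKM in VCAM1-high, and 2.55, 4.39 and 66.3 RPKM in middle-aged libraries. Ly6a was above Pecam1 in every library, by 2.04 to 6.39 times per length, and the highest ratio was in VCAM1-negative library 3. Transcripts of both excluded proteins were thus measured in all 11 libraries: the lowest Pecam1 value stood for about 58 reads and the lowest Ly6a values for about 55 and 62 reads. Ptprc, which encodes CD45 and was the third excluded protein, reached 0.197, 0.316 and 0.754 RPKM in VCAM1-negative, 0.371 and 0.166 RPKM in VCAM1-low, and 0.00952, 0.18 and 3.30 RPKM in VCAM1-high libraries. In middle-aged libraries it was listed at 0, at 0 and at 0.508 RPKM. These bulk samples do not show which cells the reads came from, and fewer cells and less RNA per cell cannot be told apart.

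Among the junction and surface genes, Cdh5 was the lowest. It had 0.687, 0.903 and 0.185 RPKM in VCAM1-negative libraries, 0.512 and 0.614 RPKM in VCAM1-low, 0.0502, 0.0723 and 0.571 RPKM in VCAM1-high, and 0.0788, 0.157 and 2.63 RPKM in middle-aged libraries. It passed 1 RPKM in middle-aged library 3 only and so was left out of the tests. About 4 reads lay behind its lowest value, in VCAM1-high library 1. Cldn5, a tight junction protein, had 7.20, 12.9 and 3.47 RPKM in VCAM1-negative libraries, 4.09 and 5.65 RPKM in VCAM1-low, 0.706, 2.18 and 10.3 RPKM in VCAM1-high, and 0.222, 0.665 and 33.1 RPKM in middle-aged libraries. Emcn, a sialomucin of capillary and venous endothelium, had 3.54, 7.24 and 0.826 RPKM in VCAM1-negative libraries, 1.56 and 4.70 RPKM in VCAM1-low, 0.141, 0.550 and 3.0 RPKM in VCAM1-high, and 0.552, 0.851 and 15.8 RPKM in middle-aged libraries. For these 3 genes VCAM1-negative libraries 1 and 2 lay above libraries 1 and 2 of VCAM1-high and middle-aged cells, and middle-aged library 3 lay above all. VCAM1-low library 2 was above VCAM1-negative library 1 for Emcn only.

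Of the VEGF receptors, KDR carries most of the growth signal and FLT1 binds VEGF-A tightly with little signalling of its own. Kdr had 0.751, 0.857 and 0.786 RPKM in VCAM1-negative libraries, 0.391 and 0.644 RPKM in VCAM1-low, 0.0253, 0.306 and 1.80 RPKM in VCAM1-high, and 0.126, 0.151 and 11.7 RPKM in middle-aged libraries. It was even among VCAM1-negative libraries (0.798 ± 0.054 RPKM, SD, n = 3), and its lowest value, in VCAM1-high library 1, stood for about 3 reads. Kdr was the 1 member whose VCAM1-negative libraries all lay above both VCAM1-low libraries, an order met by 5.77% of genes. Flt1 had 2.28, 2.96 and 0.637 RPKM in VCAM1-negative libraries, 0.410 and 1.80 RPKM in VCAM1-low, 0.109, 0.406 and 2.58 RPKM in VCAM1-high, and 0.0968, 0.338 and 8.31 RPKM in middle-aged libraries. The ratio of Flt1 to Kdr per length was 3.04, 3.45 and 0.811 in VCAM1-negative libraries, 1.05 and 2.79 in VCAM1-low, 4.29, 1.33 and 1.43 in VCAM1-high, and 0.768, 2.23 and 0.711 in middle-aged libraries. Kdr exceeded Flt1 in 3 libraries, VCAM1-negative 3 and middle-aged 1 and 3.

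The receptors of the TIE family differed from each other. Tie1 had 3.36, 4.87 and 1.18 RPKM in VCAM1-negative libraries, 1.06 and 2.59 RPKM in VCAM1-low, 0.245, 0.499 and 4.36 RPKM in VCAM1-high, and 0.223, 0.370 and 16.5 RPKM in middle-aged libraries. Tek had 18.6, 21.4 and 19.2 RPKM in VCAM1-negative libraries, 13.8 and 23.6 RPKM in VCAM1-low, 11.6, 21.4 and 20.4 RPKM in VCAM1-high, and 12.3, 19 and 29.5 RPKM in middle-aged libraries. Tek was thus at a like level in every library: its highest value was 2.55 times its lowest, while for the other 9 members this ratio ran from 26.0 (Ly6a) to 462 (Kdr). Tek means were 19.7 ± 1.5 RPKM (SD, n = 3) in VCAM1-negative, 18.7 ± 6.9 RPKM (n = 2) in VCAM1-low, 17.8 ± 5.4 RPKM (n = 3) in VCAM1-high and 20.3 ± 8.6 RPKM (n = 3) in middle-aged cells. Tek exceeded Tie1 by 4.40 to 16.4 times in VCAM1-negative libraries, by 9.14 and 13 times in VCAM1-low, by 4.68 to 47.2 times in VCAM1-high and by 1.79 to 55.4 times in middle-aged libraries.

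Egfl7, which encodes a protein secreted by endothelial cells into the vessel wall, completes the list. It had 7.90, 13.8 and 1.44 RPKM in VCAM1-negative libraries, 5.31 and 5.85 RPKM in VCAM1-low, 0.477, 1.60 and 8.14 RPKM in VCAM1-high, and 1.53, 1.22 and 37.8 RPKM in middle-aged libraries. VCAM1-negative library 3, VCAM1-high library 2 and middle-aged libraries 1 and 2 lay close together, and middle-aged library 3 was far above the rest.

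**Figure D1:**
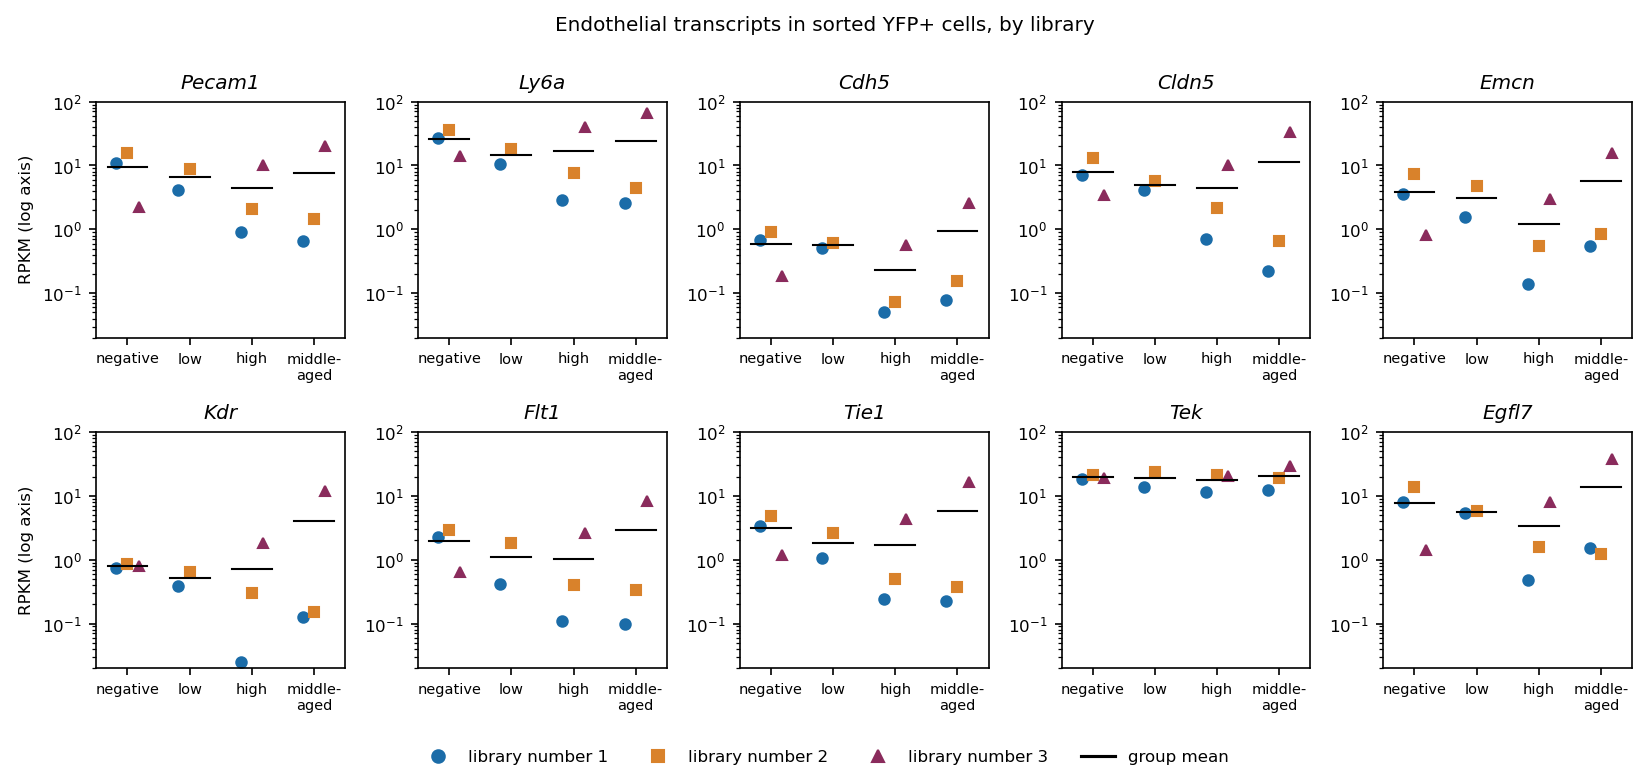
RPKM of each member on a log axis, with 1 point per library in VCAM1-negative, VCAM1-low, VCAM1-high and middle-aged cells, symbols by library number and a bar at the group mean. Middle-aged library 3 is the highest point in all 10 panels, and Tek alone spans a narrow range, 11.6 to 29.5 RPKM.

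The shares of the members in their summed level varied between libraries. Without Tek and Ly6a, the summed level of the other 8 was 36.5, 59.2 and 10.8 RPKM in VCAM1-negative libraries, 17.4 and 30.8 RPKM in VCAM1-low, 2.66, 7.67 and 41.0 RPKM in VCAM1-high, and 3.49, 5.21 and 146 RPKM in middle-aged libraries. Libraries 1 and 2 of VCAM1-high and of middle-aged cells were the 4 lowest. Pecam1, Cldn5 and Egfl7 led in every library but middle-aged 1 and 2, where Emcn exceeded Cldn5. Over all libraries they were at 14.0% to 34.1%, 6.36% to 32.3% and 13.4% to 43.8% of that sum, while Kdr was at 0.953% to 7.99% and Cdh5 at 0.943% to 3.02%. With all 10 members, the sum was 0.00385% to 0.0553% of a library's total RPKM, lowest in VCAM1-high library 1 and highest in middle-aged library 3. Tek was 22.7%, 18.3% and 43.5% of the 10-gene sum in VCAM1-negative libraries, 33.1% and 32.5% in VCAM1-low, 67.6%, 58.5% and 20.0% in VCAM1-high, and 67.1%, 66.5% and 12.2% in middle-aged libraries. Its share was largest where the other members were lowest.

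**Figure D2:**
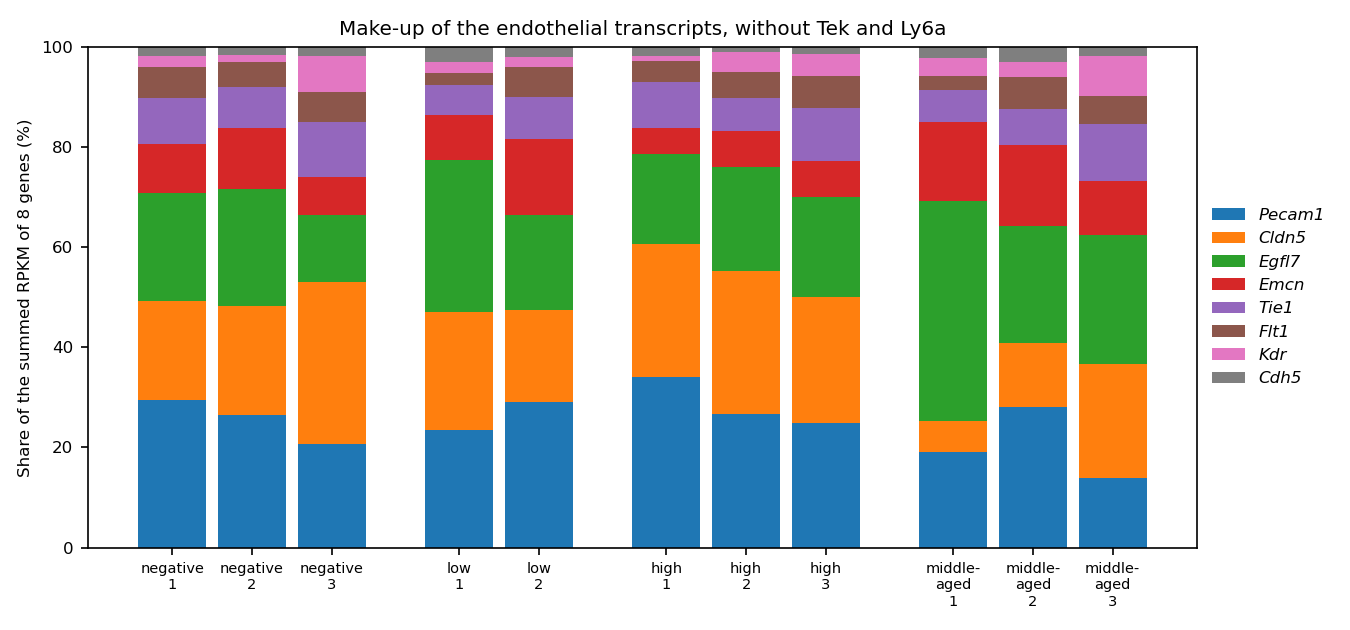
Share of the summed RPKM of 8 members (without Tek and Ly6a) that each gene takes, in percent, with 1 stacked bar per library from VCAM1-negative on the left to middle-aged on the right. Egfl7 takes 43.8% in middle-aged library 1, where Cldn5 takes 6.36%.

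Between the gates of geriatric cells, the order of the members turned round with the library number. In number 1 all 10 members were highest in VCAM1-negative, lower in VCAM1-low and lowest in VCAM1-high cells, an order met by 14.4% of genes. In number 2 this held for 9 of 10, all but Tek, against 16.3% of genes, and the same 9 met it in both numbers, against 5.87%. In number 3, which has no VCAM1-low library, 0 of 10 members were higher in VCAM1-negative than in VCAM1-high cells, against 47.3% of genes. Without Tek, VCAM1-negative levels were 9.31 (Ly6a) to 29.6 (Kdr) times the VCAM1-high ones in number 1, with a median of 13.7. They were 2.80 (Kdr) to 13.2 (Emcn) times in number 2, with a median of 7.65, and 0.177 (Egfl7) to 0.435 (Kdr) times in number 3, with a median of 0.276. The Kdr ratio in number 1 rests on about 111 and 3 reads, and its 95% exact counting interval is 9.77 to 144. All 10 members were higher in VCAM1-negative than in VCAM1-high cells in both numbers 1 and 2, against 21.8% of genes. Within groups, VCAM1-negative library 2 was the highest for 10 of 10 (31.6% of genes) and VCAM1-low library 2 lay above library 1 for 10 of 10 (51% of genes). For Tek the negative to high ratio was 1.61, 1.0 and 0.944 in numbers 1 to 3.

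**Figure D3:**
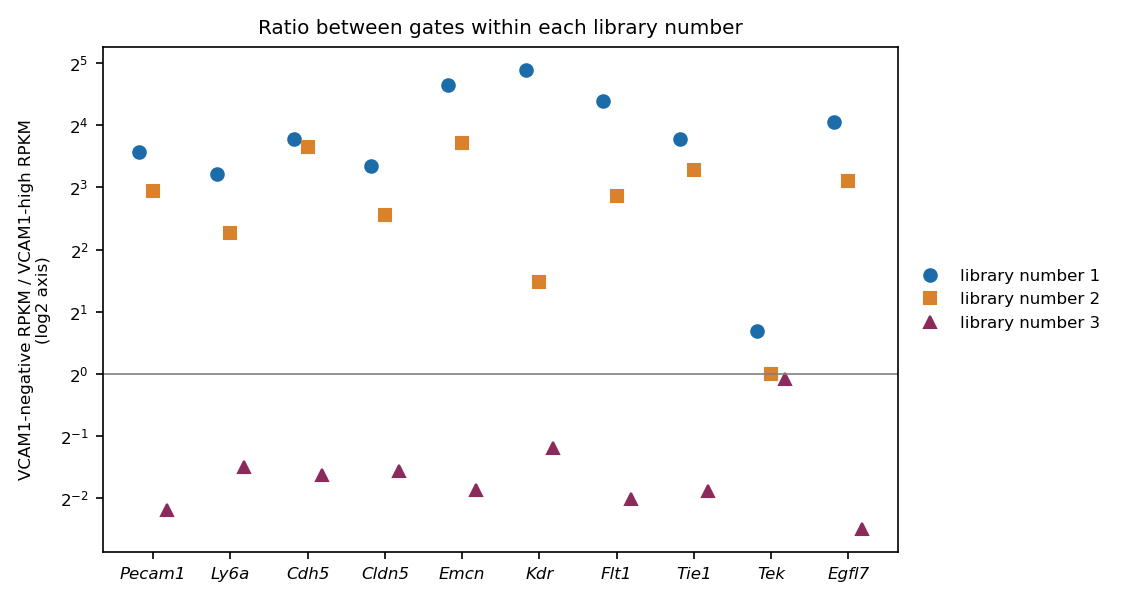
Ratio of VCAM1-negative RPKM to VCAM1-high RPKM for each member on a log2 axis, with 1 point per library number and a line at equal levels. For every member except Tek, numbers 1 and 2 lie above the line, at 2.80 or more, and number 3 lies under it, at 0.435 or less.

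Tested over all 11 libraries, VCAM1-negative against VCAM1-high cells gave no member past the threshold. With limma on log2(RPKM + 1) and Benjamini-Hochberg adjustment over 11568 genes, 0 of 9 tested members had an adjusted p under 0.05. The background was the same: 0% of genes passed, and 755 had an unadjusted p under 0.05. No member was among those, the lowest unadjusted p being 0.234 for Emcn. The log2 fold change was 1.09 ± 0.96 (SE) for Pecam1 and 1.18 ± 1.04 for Ly6a, each with a limma adjusted p of 0.883. It was positive for 9 of 9 members, from 0.19 ± 0.32 for Tek to that of Ly6a, with a median of 1.02 against -0.07 over all genes. This median was 0.42 without VCAM1-high library 1, 0.52 without VCAM1-negative library 2, 1.70 without VCAM1-high library 3 and 2.20 without the 3 libraries numbered 3. None of the members' VCAM1-negative libraries lay wholly above the VCAM1-high ones (3.28% of genes did) or wholly under them (8.08%). A term for the library number, whose deviations moved together in these groups, left the members' count at 0, while 65 genes (0.562%) passed with it over 11 libraries and 500 genes (4.42%) over the 8 geriatric ones.

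VCAM1-high against middle-aged cells likewise gave 0 of 9 members, where 0.605% of genes passed in limma (70 genes, or 807 genes, 6.98%, with a term for the library number, which left the members at 0). Fold changes on the log2 scale ran from -0.92 ± 0.87 (SE) for Emcn, with a limma adjusted p of 0.635, to 0.03 ± 1.04 for Ly6a. The median was -0.43, with 1 of 9 positive, against 0.04 over all genes. Pecam1 differed by -0.14 ± 0.96 and Kdr by -0.71 ± 0.76. The signs rest on middle-aged library 3: without it the 8 members still tested were positive (Kdr then missed the filter on low values), Pecam1 at 0.99 and Cldn5 at 1.47. The lowest unadjusted p of a member was 0.309, and 1724 genes had one under 0.05. No member's VCAM1-high libraries lay wholly above (13.8% of genes) or under (6.36%) the middle-aged ones.

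VCAM1-negative against middle-aged cells, which changes age and gate together, gave 0 of 9 members although 14.4% of genes passed in limma. The log2 fold change was 1.21 ± 1.04 (SE) for Ly6a, with a limma adjusted p of 0.439, 0.95 ± 0.96 for Pecam1 and -0.50 ± 0.76 for Kdr. The median was 0.21, with 8 of 9 positive, against -0.02 over all genes. Without middle-aged library 3 this median was 1.55. The lowest unadjusted p of a member was 0.270, and 3908 genes had one under 0.05. No member's VCAM1-negative libraries lay wholly above (18.7% of genes) or under (20.3%) the middle-aged ones. With a term for the library number 31.6% of genes passed, and 0 members. The same 3 middle-aged libraries serve here and in the comparison with VCAM1-high cells.

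Comparisons with the 2 VCAM1-low libraries also gave 0 members each. VCAM1-low against VCAM1-high had a member median of 0.42 on the log2 scale (0% of genes passed in limma, 337 at an unadjusted p under 0.05), which was -0.06 without VCAM1-high library 1, 1.35 without VCAM1-high library 3 and 1.06 with a term for the library number. VCAM1-negative against VCAM1-low had 0.27 (0% passed, 217 unadjusted), with 9 of 9 positive. With a term for the library number over 11 libraries it was -0.12, with 2 of 9 positive, and leaving out single libraries gave 0.00057 (without VCAM1-low library 1) to 0.86 (without VCAM1-negative library 3). VCAM1-low against middle-aged had 0.07 (4.11% passed, or 15.8% with a term for the library number), and 1.32 without middle-aged library 3. With that term over the 8 geriatric libraries, 0.00883% of genes passed VCAM1-low against VCAM1-high, and 0 members. No member's VCAM1-low libraries lay wholly above those of VCAM1-high (3.91% of genes) or middle-aged cells (19.9%), or wholly under them (13.1% and 24.9%), and none of the VCAM1-negative libraries lay wholly under the VCAM1-low ones (5.1%). A limma F test over the 4 groups called 0 of 9 members and 3.32% of genes, and the lowest adjusted p of a member was 0.813.

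When the 3 libraries numbered 3 were left out, several members passed. That set was chosen with the endothelial levels known, so it describes libraries 1 and 2 and is not independent support. In it 8 members had enough expression to test, Kdr and Cdh5 being left out. For VCAM1-negative against middle-aged cells 7 of 8 were higher at a limma adjusted p under 0.05, where 4.34% of genes were (7.4% in either direction). The log2 fold change was 2.79 ± 0.39 (SE) for Pecam1 (adjusted p = 0.00838), 2.88 ± 0.42 for Ly6a (0.00916) and 2.90 ± 0.37 for Cldn5 (0.00733). Egfl7 followed with 2.28 ± 0.33, Tie1 with 1.97 ± 0.29, Emcn with 1.85 ± 0.41 and Flt1 with 1.57 ± 0.32, at adjusted p-values of 0.00916 to 0.0336. Tek, at 0.36 ± 0.36 and 0.530, was the member that did not pass.

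In the same 8 libraries VCAM1-negative against VCAM1-high cells gave 1 member, Egfl7, at 2.55 ± 0.33 on the log2 scale (SE, limma adjusted p = 0.0477), where 0.0806% of genes were called higher. The fold change was 2.54 ± 0.39 for Pecam1 and 1.89 ± 0.29 for Tie1, each with an adjusted p of 0.0607. VCAM1-low against middle-aged cells gave Pecam1 at 1.82 ± 0.39 (0.0446) and Cldn5 at 2.03 ± 0.37 (0.0281), where 2.23% of genes were higher (3.59% in either direction). VCAM1-high against middle-aged cells gave 0 of 8, with fold changes of -0.35 for Emcn to 0.71 for Cldn5 and 0.851% of genes called. The F test called 5 of 8 members, Pecam1, Ly6a, Tie1, Egfl7 and Cldn5, and 2.25% of genes. Each group has 2 libraries in these fits, and the spread is shared over the 4 groups.

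**Figure D4:**
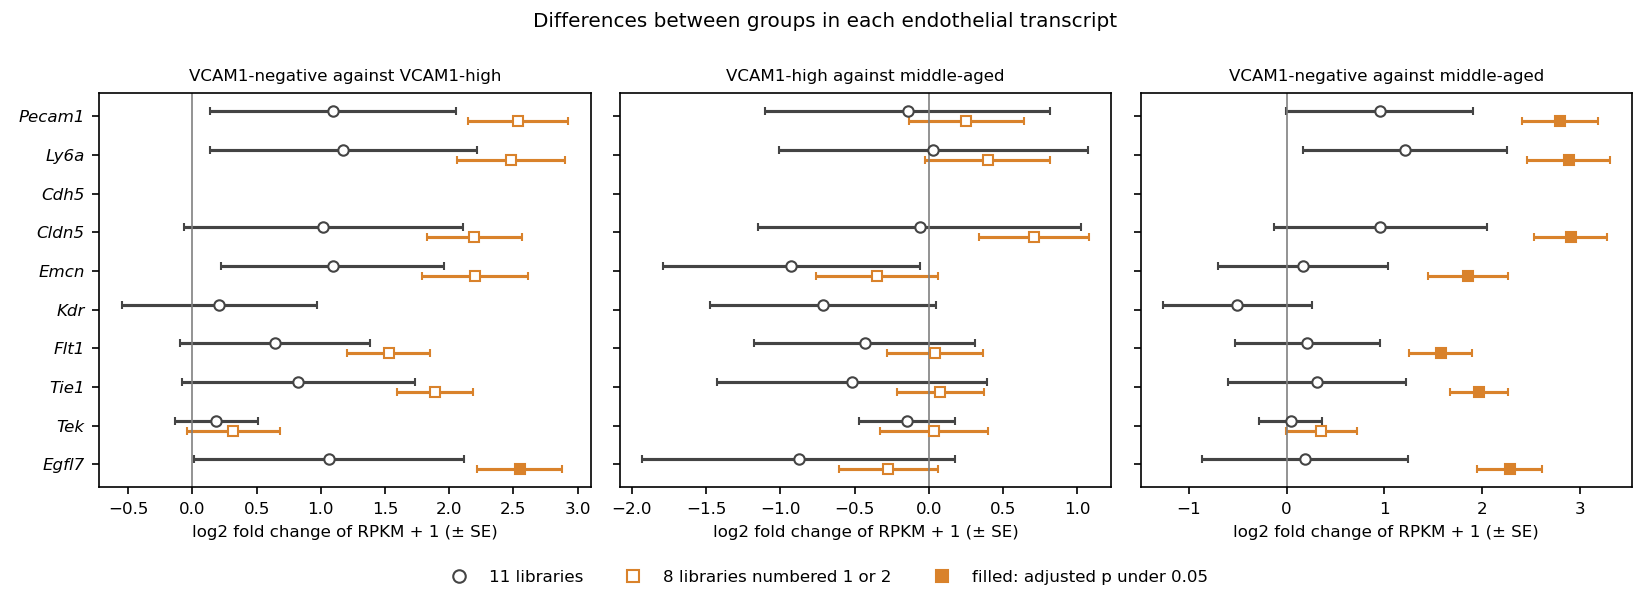
Log2 fold change of RPKM + 1 with its SE (horizontal axes differ) for each member in 3 comparisons, over 11 libraries (circles) and over the 8 libraries numbered 1 or 2 (squares), filled where the limma adjusted p was under 0.05. Cdh5 was not tested, and Kdr was tested in the 11 libraries only.

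Most other endothelial genes followed the same order of libraries. Of 30 further endothelial genes, 25 were tested and 0 passed in any of the 6 comparisons. Their median log2 fold change was 0.66 (23 of 25 positive) for VCAM1-negative against VCAM1-high, -0.34 (2 of 25) for VCAM1-high against middle-aged and 0.34 (17 of 25) for VCAM1-negative against middle-aged cells. All 30 were highest in library 3 among middle-aged cells, against 29.3% of genes. The gate order was met by 26 of 30 in number 1 (14.4% of genes), and by 22 of 30 in numbers 1 and 2 (5.87%). In number 3, 1 of 30 was higher in VCAM1-negative than in VCAM1-high cells, against 47.3% of genes. For 25 of 30, library 3 was the lowest of VCAM1-negative and the highest of VCAM1-high and of middle-aged cells, against 2.73% of genes. Clec14a, Pglyrp1, Rgcc, Slc9a3r2 and Calcrl missed this order. Rgcc had 86.1, 144 and 83.7 RPKM in VCAM1-high libraries. Plvap, which forms the diaphragms of fenestrated endothelium, parted from Pecam1: it had 20.9, 37.9 and 0.410 RPKM in VCAM1-negative libraries, 14.1 and 34.6 RPKM in VCAM1-low, 0.744, 5.88 and 11.4 RPKM in VCAM1-high, and 1.01, 1.49 and 17.1 RPKM in middle-aged libraries. Its ratio to Pecam1 was 0.184 in VCAM1-negative library 3 and 0.821 to 3.87 in the other 10. Plvap was singled out after its values were seen.

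Likeness to the members was measured as the mean difference in rank over the 11 libraries from the members' mean log2 level, among 7273 genes averaging 5 RPKM or more, whose median was 3.82. The closest were Ly6c1 (a Ly6 relative of Ly6a), Esam (an endothelial adhesion molecule) and Tinagl1 (a secreted matrix protein), each at 0.182. Cd36, a fatty acid transporter, was at 0.364, and Fabp4, Aqp1, Gpihbp1 and Gimap6 were at 0.545. Markers of other cells also came near: the macrophage genes C1qa, C1qb and C1qc and the Schwann gene Mbp were at 1.09. The endothelial factor Tcf15 was at 1.09 as well. Ly6c1 had 38.7, 62.1 and 15.5 RPKM in VCAM1-negative libraries, 15.4 and 32.3 RPKM in VCAM1-low, 2.79, 9.42 and 52.8 RPKM in VCAM1-high, and 3.08, 7.31 and 112 RPKM in middle-aged libraries. Among the members themselves the measure was 0.364 for Pecam1, Flt1, Tie1 and Cldn5 and 1.82 for Tek.

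Many endothelial transcription factors followed the members' order of libraries. Fli1, Tal1, Sox7, Sox17, Sox18, Tcf15 and Meox2, 7 of 13 factors, were lowest in library 3 of VCAM1-negative and highest in library 3 of VCAM1-high and of middle-aged cells. Over all genes 2.73% met this order. The ETS factor Fli1 had 1.76, 2.14 and 0.301 RPKM in VCAM1-negative, 0.268, 0.648 and 2.35 RPKM in VCAM1-high, and 0.136, 0.268 and 5.49 RPKM in middle-aged libraries. Sox17, an arterial factor, had 2.14, 1.85 and 0.449 RPKM in VCAM1-negative, 0.135, 0.192 and 1.81 RPKM in VCAM1-high, and 0.0772, 0.385 and 10.2 RPKM in middle-aged libraries. Of the 13 factors 11 were tested, and 10 of 11 were positive for VCAM1-negative against VCAM1-high cells, with a median of 0.39 on the log2 scale. Gata2, a zinc-finger factor of blood-forming and endothelial cells, was the 1 that rose in VCAM1-negative against middle-aged cells, by 1.53 ± 0.38 on the log2 scale (SE, limma adjusted p = 0.0288), and 0 passed between VCAM1-negative and VCAM1-high cells or between VCAM1-high and middle-aged cells. Gata2 had 8.38, 7.71 and 7.95 RPKM in VCAM1-negative libraries and 0.569, 2.25 and 4.98 RPKM in middle-aged libraries, with no overlap. Over all genes 14.4% passed in this comparison and 18.7% lay wholly above, so 1 of 11 factors is no more than the background gives. Klf2 and Klf4, which respond to blood flow in endothelium and to stress in many cells, were high throughout and did not follow that order, Klf4 at 81.9 to 181 RPKM over all libraries. Erg reached at most 0.287 RPKM, in middle-aged library 3. Fli1, Sox17 and Erg were chosen after their values were seen.

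Of 11 genes for VEGF and angiopoietin ligands and other receptors 9 were tested. Angpt4 and Flt4, 2 of 11, met that order of library 3, against 2.73% of all genes. Angpt2, a context-dependent antagonist of TEK, rose in VCAM1-negative against middle-aged cells by 1.28 ± 0.36 on the log2 scale (SE, limma adjusted p = 0.0412), with 4.32, 4.89 and 2.92 RPKM in VCAM1-negative libraries against 0.629, 0.630 and 2.24 RPKM in middle-aged libraries. Angpt2 was 1 of 9 tested genes, where 14.4% of all genes passed. Neither of the comparisons of VCAM1-high cells had a gene of this list that passed. Vegfa, the main ligand of KDR, was at 27.9 to 59.1 RPKM over all libraries, and Angpt1, the agonist of TEK, at 1.32 to 7.69 RPKM. Flt4, the receptor of lymphatic endothelium, stayed at 0.548 RPKM or less.

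Markers of other cells moved with the endothelial genes across libraries. Summed over 4 erythroid genes, the level was 346, 650 and 194 RPKM in VCAM1-negative libraries, 523 and 650 RPKM in VCAM1-low, 14.0, 54.1 and 488 RPKM in VCAM1-high, and 22.1, 5.77 and 165 RPKM in middle-aged libraries. Over 11 macrophage genes it was 79.2, 92.5 and 216 RPKM in VCAM1-negative libraries, 38.4 and 54.5 RPKM in VCAM1-low, 2.79, 17.0 and 872 RPKM in VCAM1-high, and 27.8, 5.38 and 142 RPKM in middle-aged libraries. Library 3 was the highest in VCAM1-high and middle-aged cells for both lists, as for the members. In VCAM1-negative cells the sum in library 3 was the lowest for erythroid and the highest for macrophage genes. Lyz2 held 174 RPKM of that macrophage sum. C1qa, C1qb, C1qc and Mrc1, 4 of 11 macrophage genes, were lowest in this library and highest in library 3 of VCAM1-high and middle-aged cells. Hbb-bs and Hbb-bt, 2 of 4 erythroid genes, met that order too, against 2.73% of all genes. Alas2 had 5.41, 12.1 and 6.53 RPKM in VCAM1-negative libraries. Lyz2, a lysozyme of myeloid cells, reached 591 RPKM in VCAM1-high library 3, against 0.426 and 6.82 RPKM in libraries 1 and 2. Of the 11 macrophage genes, 8, 7 and 9 reached 1 RPKM in VCAM1-negative libraries, 6 and 7 in VCAM1-low, 1, 5 and 11 in VCAM1-high, and 3, 2 and 9 in middle-aged libraries. In VCAM1-high library 1, 5 of them were listed at 0. None of the 3 tested erythroid or 9 tested macrophage genes passed in the 6 comparisons, and their part in the endothelial result was not tested.

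Other lists had narrower ranges or another order in VCAM1-negative cells. Over 12 fibro-adipogenic genes, cells that also carry Sca-1, the sum was 1219 to 2281 RPKM in VCAM1-negative, 1244 to 1806 RPKM in VCAM1-low, 1288 to 2308 RPKM in VCAM1-high and 1794 to 3592 RPKM in middle-aged libraries, and Gsn held the largest part. Library 3 was the highest of VCAM1-high and of middle-aged cells for 11 of 12 genes each, against 40.5% and 29.3% of genes, as for the endothelial members. It was the lowest of VCAM1-negative cells along with these for 0 of 12, against 2.73% of genes. Dcn had 326, 501 and 439 RPKM in VCAM1-high and 24.5, 52.9 and 485 RPKM in middle-aged libraries. In VCAM1-negative against middle-aged cells Dcn rose by 2.85 ± 0.80 and Dpt fell by 3.14 ± 0.59 on the log2 scale (SE, limma adjusted p = 0.0401 and 0.0107). In that comparison 14.4% of all genes passed. The 12 pericyte and smooth muscle genes summed to 132 to 265 RPKM in VCAM1-negative, 144 to 214 RPKM in VCAM1-low, 164 to 360 RPKM in VCAM1-high and 365 to 601 RPKM in middle-aged libraries, and Tagln fell by 2.51 ± 0.48 (0.0112) while Abcc9 rose in VCAM1-negative against middle-aged cells. The 10 myofibre genes summed to 697, 7246 and 5460 RPKM in VCAM1-negative libraries, and 8 of 9 tested rose against middle-aged cells. This order of VCAM1-negative libraries is not that of the endothelial members. Myofibre sums were at most 166 RPKM in VCAM1-low, 155 RPKM in VCAM1-high and 331 RPKM in middle-aged libraries. In VCAM1-high and middle-aged cells that highest sum was in library 3, as for the members.

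Some tendon and Schwann markers were also highest in library 3. In VCAM1-high cells this held for 3 of 5 tenocyte and 5 of 6 Schwann genes, against 40.5% of genes. In middle-aged cells it held for 4 of 5 and 4 of 6, against 29.3%. The Schwann sum was 286, 147 and 292 RPKM in VCAM1-high and 427, 372 and 378 RPKM in middle-aged libraries, where library 1 was the highest. Pmp22 had 423, 369 and 360 RPKM in middle-aged libraries. The tenocyte sum was 40.0, 45.8 and 47.3 RPKM in VCAM1-negative, 34.4 and 28.2 RPKM in VCAM1-low, 36.8, 27.1 and 60.1 RPKM in VCAM1-high, and 16.3, 22.9 and 161 RPKM in middle-aged libraries. Fmod, a proteoglycan of tendon, had 3.06, 7.30 and 9.05 RPKM in VCAM1-negative, 0.560, 0.962 and 13.6 RPKM in VCAM1-high, and 0.201, 0.445 and 94.9 RPKM in middle-aged libraries. The myelin gene Mbp had 12.0, 10.8 and 2.1 RPKM in VCAM1-negative, 2.77, 3.07 and 6.13 RPKM in VCAM1-high, and 1.75, 2.05 and 13.1 RPKM in middle-aged libraries. The part of these cells in the endothelial result was not tested. Lymphatic genes (4 of 6 tested) gave 0 calls in the 6 comparisons. Their sums were 69.1 to 101 RPKM in VCAM1-negative, 73.7 to 87.0 RPKM in VCAM1-high and 67.2 to 130 RPKM in middle-aged libraries. Pdpn held the largest part. Lyve1 and Reln, 2 of 6, met the members' order of library 3 in all 3 groups, against 2.73% of genes. Lyve1 had 0.0767, 0.142 and 9.35 RPKM in VCAM1-high libraries. Of 10 lymphocyte genes Cd79a alone was tested, at 1.53 ± 0.26 on the log2 scale in VCAM1-negative against middle-aged cells (SE, limma adjusted p = 0.00876), and it also passed in the other comparisons with middle-aged cells, as did the tenocyte gene Scx. Of 4 tested Schwann genes Pmp22 fell by 1.19 ± 0.30 (0.0297), and of 5 tenocyte genes Scx rose by 1.18 ± 0.21 (0.00972) in that comparison. Of the 12 muscle stem cell genes, Itga7, Vcam1 and Calcr fell in it, and VCAM1 was also the gated protein. Over all genes 14.4% passed in VCAM1-negative, 4.11% in VCAM1-low and 0.605% in VCAM1-high against middle-aged cells.

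**Figure D5:**
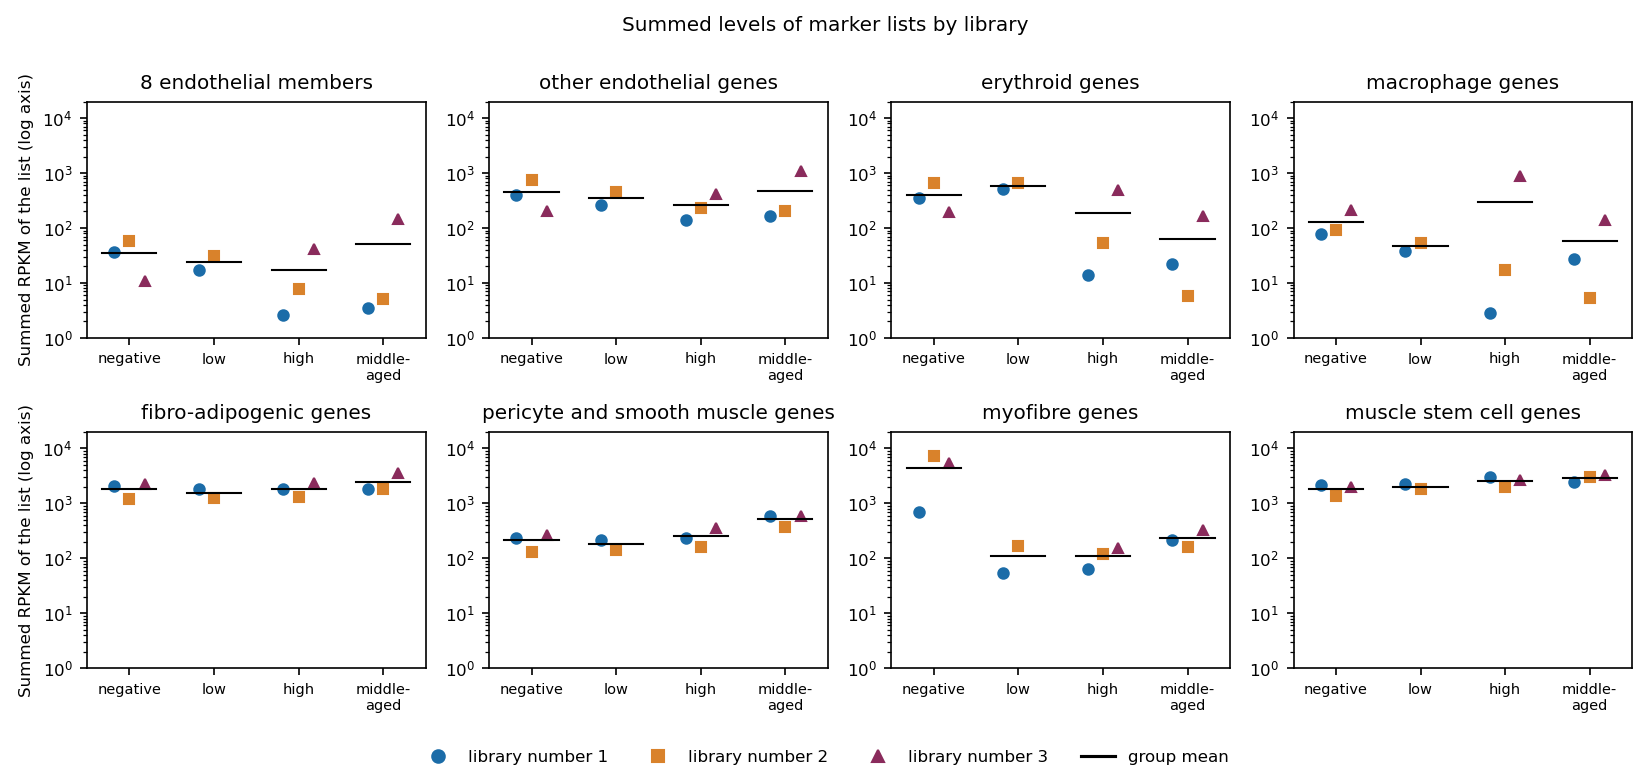
Summed RPKM of 8 marker lists on a log axis, with 1 point per library and a bar at the group mean, in VCAM1-negative, VCAM1-low, VCAM1-high and middle-aged cells. In endothelial, erythroid, macrophage, fibro-adipogenic and myofibre panels library 3 is the highest of VCAM1-high and middle-aged cells. The muscle stem cell sum stays between 1336 and 3354 RPKM.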

How the data were processed

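Per the labels' protocols, cDNA of sorted cells was made with SMART-Seq v4 chemistry, and paired-end reads came from an Illumina HiSeq. The authors deposited RPKM values per gene symbol, and 2161 of 20640 symbols are 0 throughout. Per the submitters' processing notes, the tools were STAR 2.7.5b, SAMtools 0.1.19, Bowtie2 2.1.0 and cutadapt 3.1, with the build GRCm39. Sources used here do not give the counter, annotation or gene lengths. Multigene relatives such as Ly6a and Ly6c1 may share reads.

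The test was limma 3.58.1 (R 4.3.3), run on log2(RPKM + 1) for the 11568 genes that reached 1 RPKM in 2 or more libraries. One fit with 4 group means covered 11 libraries, with a variance trend and Benjamini-Hochberg adjustment over all genes. Passing means adjusted p under 0.05. Fold changes of RPKM + 1 understate those of low genes. The fit was tested on simulated data. Alternatives were pseudocount, filter, scaling, a replicate block, the 2 groups alone and libraries left out.

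Depth came from the step 1 read makes in values of 0.1 RPKM or less, over 3428 genes with a single transcript. Between 62.5% and 73.0% of these low values, 290 to 617 per library, came within 0.1 of whole reads. Chance gives 20% at a depth fixed beforehand. The depth was chosen for a share near the highest, so 20% is not its own chance level. Gene lengths are those of a different annotation, so read numbers are estimates, and intervals cover counting error only.

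Members, marker lists and tests were chosen with earlier results of these data known. Of each list, the 4 genes with the highest mean were eligible to be named, and 8 genes by likeness of library order. Genes named because they passed the test, and Vegfa, Angpt1 and Flt4 as ligands and receptor, stand beside these.

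Deviations from the group means correlated between libraries of the same number at 0.413, 0.581 and 0.403 for VCAM1-negative with VCAM1-high, and at 0.211, 0.332 and 0.554 for VCAM1-high with middle-aged cells. The labels do not say what the numbers mark.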

Additional observations from a re-analysis of the deposited data

How the results depend on the processing

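In the replicate block fits (library number as a term) 0 members passed in the 6 comparisons, so pairing changed no member's call, but the member median of VCAM1-negative against VCAM1-low turned to -0.12 over 11 libraries (0.27 over 8). The count of all genes passing moved with it: 65 (11 libraries) and 500 (8 geriatric libraries) for VCAM1-negative against VCAM1-high, 807 for VCAM1-high against middle-aged, 3656 for VCAM1-negative against middle-aged, 1827 for VCAM1-low against middle-aged and 1 for VCAM1-low against VCAM1-high (8 libraries). Numbers of VCAM1-negative and middle-aged libraries did not pair, at -0.0246, 0.0330 and 0.0808.

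Without the number-3 libraries 1, 7, 2 and 5 members passed for VCAM1-negative against VCAM1-high, VCAM1-negative against middle-aged, VCAM1-low against middle-aged and the F test. The member medians were 2.12 and 1.32 for VCAM1-negative and VCAM1-low against middle-aged, and 9 and 826 genes passed for VCAM1-negative against VCAM1-high and against middle-aged. Fold changes of VCAM1-high against middle-aged turned sign to 0.25 (Pecam1), 0.0435 (Flt1), 0.0778 (Tie1), 0.0372 (Tek) and 0.71 (Cldn5). Cldn5 was also 0.41 with a pseudocount of 0.1, and Ly6a -0.0351 with median ratio scaling. Kdr was 0.0353 in VCAM1-negative against middle-aged cells with the pseudocount of 0.1. The causes were not tested.

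Genes passing VCAM1-negative against VCAM1-high were 22 with the pseudocount of 0.1, 18 at a mean of 5 RPKM or more, 13 with equal sums and 16 with median ratio scaling. With no filter on low values 20, 870 and 104 genes passed for VCAM1-high, VCAM1-negative and VCAM1-low against middle-aged. Fitting the 2 groups alone gave 14 for VCAM1-high against middle-aged.

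Leaving out each library in turn left 0 to 128 genes passing for VCAM1-negative against VCAM1-high, 18 to 240 for VCAM1-high against middle-aged, 339 to 1836 for VCAM1-negative against middle-aged, 0 to 117 for VCAM1-negative against VCAM1-low and 1 to 825 for VCAM1-low against middle-aged. Member medians ran from 0.42 to 1.70 for VCAM1-negative against VCAM1-high, from -0.06 to 1.35 for VCAM1-low against VCAM1-high, from 0.00057 to 0.86 for VCAM1-negative against VCAM1-low and from -0.99 to 0.64 for VCAM1-high against middle-aged. They ran from -0.35 to 1.55 for VCAM1-negative and from -0.50 to 1.32 for VCAM1-low against middle-aged, the highest without middle-aged library 3. For VCAM1-negative against VCAM1-high, Kdr ran from -0.0906 to 0.23 and Tek from -0.0809 to 0.34. For VCAM1-high against middle-aged, the ranges were -0.88 to 0.99 (Pecam1), -0.92 to 1.34 (Ly6a), -0.99 to 0.55 (Flt1), -1.18 to 0.73 (Tie1), -0.44 to 0.15 (Tek), -1.62 to 0.47 (Egfl7), -1.54 to 0.18 (Emcn) and -0.94 to 1.47 (Cldn5). For VCAM1-negative against middle-aged they were -0.35 to 1.19 (Flt1), -0.36 to 1.56 (Tie1), -0.26 to 0.34 (Tek), -0.53 to 1.53 (Egfl7) and -0.45 to 1.27 (Emcn). Where VCAM1-low keeps 1 library, it is assumed to vary like the other groups. Single members were not followed through the comparisons with VCAM1-low. RPKM gives no exact depth, so counting error at low levels, such as Kdr in VCAM1-high library 1, is known only by estimate.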
